A study of Homo sapiens with 6 samples.

Results

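The genes described here are the SNARE proteins and the proteins that regulate them, taken from the deposited gene table as protein-coding genes whose symbols belong to the syntaxin, VAMP, SNAP25, GOSR, BET1, VTI1, SEC22, syntaxin-binding protein, SCFD and NAP families, together with YKT6, USE1, BNIP1 and NSF. Genes entered by symbol, with no measured value in the rule, which gave 51 genes of 58735 in the table (19951 of them protein-coding). RNA was sequenced from RPE-1 cells, an immortalized human retinal pigment epithelial line, in which CETN2, a centriole protein, carries GFP and PLK4, the kinase that starts centriole duplication, is driven by a doxycycline-inducible rtTA promoter. Cells received either an siRNA against SON, a nuclear speckle protein needed for splicing of many pre-mRNAs (siSON, 3 libraries), or a scramble siRNA (siControl, 3 libraries), by lipid transfection. Both groups were given 1 µg/mL doxycycline to switch PLK4 on, so all values below come from cells with induced PLK4.

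SNARE proteins drive the fusion of transport vesicles with their target membranes. A vesicle R-SNARE and Q-SNAREs on the target membrane zip into a helical bundle that pulls the membranes together; SM proteins (Sec1/Munc18 family) guide the assembly, and the ATPase NSF with its SNAP adaptors takes spent bundles apart for reuse. Each step of the secretory and endosomal routes uses its own set, and the study's title links SON to intracellular trafficking that promotes centriole assembly.

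The libraries held 54572365 to 69764836 counts. SON itself had 295.3, 312.7 and 283.9 CPM (read counts scaled to library size with TMM factors) in the siControl libraries and 67.96, 69.96 and 65.00 CPM in the siSON libraries. The SON log2 fold change, siSON over siControl, was -2.14 (SE 0.06, edgeR adjusted p 6.78e-10), which left 22.8% of the control level. Of the retinal pigment epithelium markers, OTX2 and MITF had means of 19.9 and 21.7 CPM in siControl, while RPE65 had 0 to 18 counts and TYR and TTR had 0 counts in all 6 libraries. The line therefore carried some, and lacked other, defining transcripts of its tissue of origin. In bulk libraries, a smaller number of cells with a transcript and less of it per cell cannot be told apart.

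Of the 51 genes, 48 passed the filter on low counts. The 3 that did not were VAMP8 (3 to 14 counts per library), an R-SNARE of late endosomes and secretory granules, STXBP2 (0 to 5 counts), an SM protein of cytotoxic and mast cell secretion, and STX19 (3 counts over all 6 libraries). At these depths 3 counts correspond to 0.0430 to 0.0550 CPM by total counts, without the TMM factors that the other CPM values carry. These genes were thus at or close to the limit of detection in both groups. Among the 48 tested genes, 37 (77.1%) differed between groups at an adjusted p under 0.05, 27 higher and 10 lower after SON knockdown. The same test called 71.7% of all 16591 genes tested and 77.4% of the 13008 protein-coding genes tested, so the share of SNARE genes called was close to the background. Higher calls made up 56.2% of the tested SNARE genes, beside 35.2% of all genes and 40.3% of protein-coding genes, and lower calls made up 20.8%, beside 36.5% and 37.1%. This split depended on the scaling: with library size alone it was 21 higher and 16 lower, and under cyclic loess normalization 27 and 13. Of the calls, 73.0% were higher with TMM and 56.8% with library size alone, beside 49.1% and 37.7% of the calls over all genes tested. The median log2 fold change was 0.30 for the 48 genes and -0.027 for all genes tested, and with library size alone these medians were 0.10 and -0.223.

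Changes of at least 2-fold were few and mostly downward. Falls of that size were seen in 6 genes, STX4, VAMP5, STX2, VAMP2 and STX10 among them (12.5% of the tested genes, beside 20.5% of all genes and 18.7% of protein-coding genes), and STX3, BNIP1 and STX18 rose by that much (6.25%, beside 8.72% and 8.62%). BNIP1 and STX18 fell short of 2-fold under other scalings. Their log2 fold changes were 0.98 and 0.94 with upper quartile scaling and 0.87 and 0.83 with library size alone. The groups did not overlap for 38 of the 48 genes (79.2%), beside 75.1% of all genes tested and 79.9% of protein-coding genes tested.

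**Figure D1:**
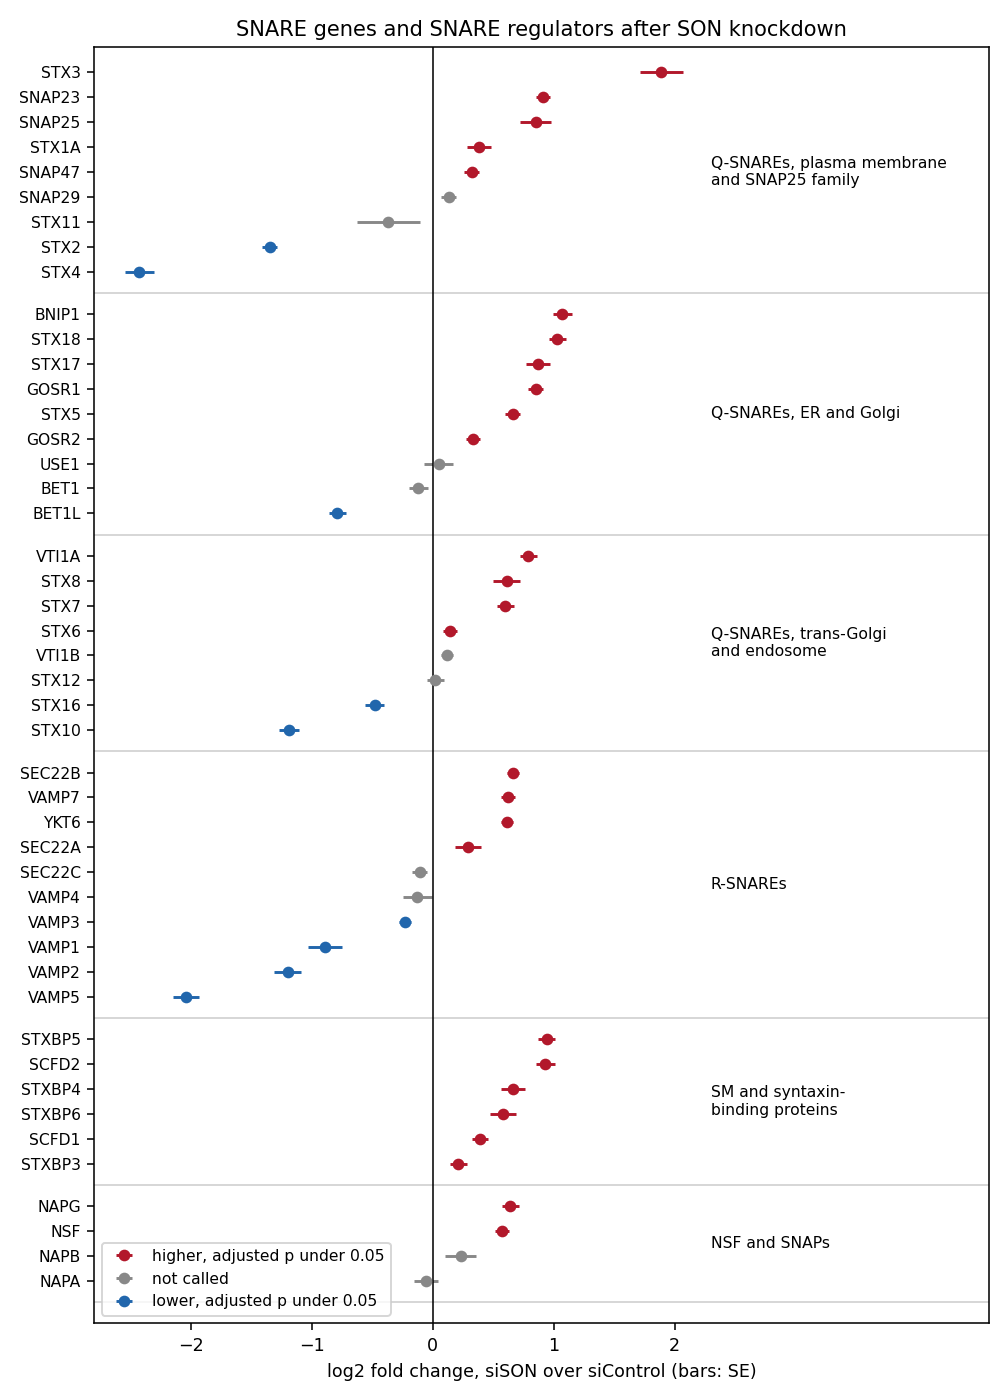
Log2 fold change (siSON over siControl, horizontal axis) of 46 of the 48 tested genes, grouped by role, with standard errors as bars; colour shows the call at an adjusted p under 0.05. The plasma membrane group spans the widest range, from -2.43 (STX4) to 1.89 (STX3), and with TMM scaling no SM, syntaxin-binding, NSF or SNAP gene was called lower (with library size alone NAPA was among those that were).

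Syntaxins of the plasma membrane moved in opposite directions. These Q-SNAREs receive secretory vesicles at the cell surface. STX4, which serves constitutive and regulated exocytosis in most cell types, had 50.8, 44.6 and 41.9 CPM in the siControl libraries and 9.91, 8.53 and 7.04 CPM in the siSON libraries. All siSON values of STX4 lay far below all siControl values, and 18.6% of the level remained (log2 fold change -2.43, SE 0.12, edgeR adjusted p 2.09e-08). STX2, also called epimorphin and used at the cell surface and in cytokinesis, went from 72.5, 72.7 and 75.6 CPM to 27.4, 28.7 and 30.5 CPM, again without overlap (log2 fold change -1.35, SE 0.06, adjusted p 1.33e-08). STX3, a syntaxin of the apical surface in polarized epithelia, went the other way. Its values were 47.3, 31.6 and 29.9 CPM in siControl and 158, 120.6 and 125.1 CPM in siSON; replicate 1 was the highest library of each group, and the groups did not overlap (log2 fold change 1.89, SE 0.18, adjusted p 9.65e-06). STX4 is at chr16:31032889-31042975 (plus strand, 11 exons), STX2 at chr12:130789600-130839266 (minus strand, 11 exons) and STX3 at chr11:59713456-59805882 (plus strand, 11 exons), all on GRCh38.

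The stretches of 250 bases before the annotated starts of these broadly expressed syntaxins are shown because the genes responded so differently. They are from RefSeq (GRCh38.p14), with each match to GGGCGG or its reverse complement, the core of the GC box bound by SP1-family factors, in capitals.
STX4, chr16:31033241-31033490, plus strand: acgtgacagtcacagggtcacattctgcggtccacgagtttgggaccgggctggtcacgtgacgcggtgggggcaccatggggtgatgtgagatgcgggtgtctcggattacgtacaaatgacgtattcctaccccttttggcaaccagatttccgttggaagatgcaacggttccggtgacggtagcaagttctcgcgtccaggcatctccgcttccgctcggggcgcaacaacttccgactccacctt
STX2, chr12:130839251-130839500, minus strand: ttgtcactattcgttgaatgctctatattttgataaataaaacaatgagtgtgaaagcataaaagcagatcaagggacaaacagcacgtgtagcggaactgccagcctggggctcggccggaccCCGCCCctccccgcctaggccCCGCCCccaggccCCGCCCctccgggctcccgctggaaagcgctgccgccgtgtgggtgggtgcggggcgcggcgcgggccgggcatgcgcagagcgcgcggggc
STX3, chr11:59755126-59755375, plus strand: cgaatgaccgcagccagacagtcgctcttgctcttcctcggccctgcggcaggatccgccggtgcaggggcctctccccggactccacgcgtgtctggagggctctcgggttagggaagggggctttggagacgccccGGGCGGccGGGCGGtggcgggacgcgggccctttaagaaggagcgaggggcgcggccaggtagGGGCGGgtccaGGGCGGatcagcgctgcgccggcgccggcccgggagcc
The window of STX4 held 0 matches, that of STX2 held 3 and that of STX3 held 4. Windows of STX10 and STX16, which also fell, held 2 and 1, so of these only the STX4 window lacked a match. STX4 has 3 entries in the RefSeq table, of which 2 hold a match. The STX4 entry shown starts at the start of the transcript used for gene structure. The STX3 entry starts 317 bases downstream of the transcript start used for that gene (59755059). Its whole window therefore lies after that start.

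Searching all 44 genes of the set that had an entry, on both strands, found GGGCGG in 7 of the 8 lower genes, 10 of the 24 higher genes and 7 of the 9 genes that were not called. Over all promoters in the table it was in 42.6% of windows of the same length. Among protein-coding genes tested, however, it was in 69.4% of lower and 69.1% of higher genes, so over the whole table its presence did not differ with the direction of change. TATAAA was found in no called gene of the set (10.7% of all promoters, 5.45% of protein-coding genes tested). CCAAT was in 1 of the 8 lower, 10 of the 24 higher and 4 of the 9 genes not called (32.0% of all promoters, 35.0% of protein-coding genes tested). Over protein-coding genes tested it was in 35.3% of lower and 34.1% of higher genes, so its presence there hardly differed with direction. TGACGTCA, the cAMP response element, was found in 1 higher gene and 1 gene not called (1.65% and 2.89%). These matches describe letters in the windows and were not tested.

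STX1A, the syntaxin of synaptic vesicle release, had 28.9, 26.1 and 22.8 CPM in siControl and 37.0, 33.4 and 30.5 CPM in siSON. It rose by 0.38 on the log2 scale (SE 0.10, edgeR adjusted p 0.00535), and this call was lost with library size alone. Part of the STX1A count region, 17.9% of its exonic bases, overlaps BUD23 on the other strand. STX11, a syntaxin of immune cells, had 0.810 to 1.83 CPM over the 6 libraries, with overlapping groups (log2 fold change -0.37, SE 0.26, adjusted p 0.221).

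Members of the SNAP25 family give 2 helices to the bundle and pair with the surface syntaxins. Of the 4, 3 were called higher, beside 40.3% of protein-coding genes tested. SNAP23, the form found outside neurons, rose from 58.7, 64.5 and 63.7 CPM to 117.3, 116.4 and 118.6 CPM (log2 fold change 0.91, SE 0.06, edgeR adjusted p 8.34e-08). SNAP25, the neuronal form, had 4.44, 4.81 and 5.89 CPM in siControl and 8.06, 9.71 and 9.54 CPM in siSON (log2 fold change 0.85, SE 0.13, adjusted p 0.000142). For SNAP47 the log2 fold change was 0.32 (adjusted p 0.000773), a call lost with library size alone, and 35.3% of its exonic bases overlap JMJD4 on the other strand. SNAP29, which acts in autophagosome and endosome fusion, had a log2 fold change of 0.13 (adjusted p 0.0504); its groups did not overlap and it was not called. STX4 thus fell while SNAP23, with which it forms a surface complex, rose. Part of the SNAP23 count region, 23.6% of its exonic bases, overlaps AC018362.1 on the other strand.

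Several genes of this set are known from neurons, so a list of 7 neuronal markers was read beside them. RBFOX3 and ELAVL4 had 0 counts in all libraries. The summed level of the list was 14.7 to 15.1 CPM in siControl and 9.02 to 9.5 CPM in siSON, most of it from TUBB3 and GAD1, and 4 of the 5 tested markers were lower. SNAP25 and STX1A rose while this sum fell, and VAMP2, VAMP1 and SYT1, also known from synapses and described further on, fell with it. The part of other cells' RNA in those results was not tested.

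**Figure D2:**
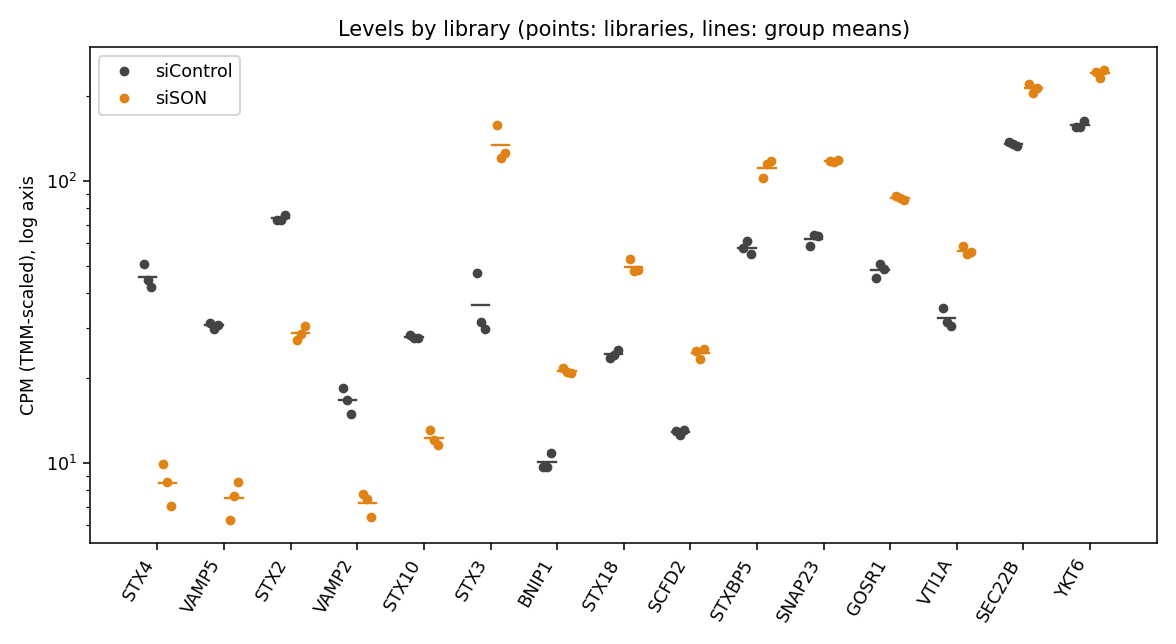
CPM by library (vertical axis, log scale) of 15 genes, with points for the 3 libraries of each group and lines for group means. STX4, VAMP5, STX2, VAMP2 and STX10 lie lower in every siSON library, and the 10 genes from STX3 to YKT6 lie higher in every siSON library.

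Q-SNAREs of the endoplasmic reticulum (ER) and Golgi mostly rose: of 9 tested, 6 were higher, 1 was lower and 2 were not called. The share called, 77.8%, was close to the 77.4% of protein-coding genes, of which 40.3% were higher. STX18 and BNIP1 act with USE1 and the R-SNARE SEC22B in vesicle return from the Golgi to the ER. BNIP1 had 9.69, 9.66 and 10.8 CPM in siControl and 21.7, 21.0 and 20.8 CPM in siSON (log2 fold change 1.07, SE 0.08, edgeR adjusted p 4.86e-07). STX18 had 23.5, 24.2 and 25.2 CPM in siControl and 52.8, 47.8 and 48.3 CPM in siSON (log2 fold change 1.03, SE 0.07, adjusted p 1.47e-07). Both genes were close to doubled, with no overlap between groups. USE1, by contrast, had 7.19 to 9.20 CPM in siControl and 7.97 to 9.41 CPM in siSON, with overlapping groups (log2 fold change 0.05, SE 0.12, adjusted p 0.702). Under cyclic loess USE1 was called higher (0.30, limma adjusted p 0.0454).

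STX5 is the central Q-SNARE of ER-to-Golgi and intra-Golgi transport and works with GOSR2, BET1 and SEC22B in the former and with GOSR1, BET1L and YKT6 in the latter. STX5 rose by 0.66 on the log2 scale (SE 0.06, edgeR adjusted p 3.16e-06), from 33.0 to 36.2 CPM over the siControl libraries to 54.0 to 56.9 CPM over the siSON libraries. GOSR1 rose by 0.85 and GOSR2 by 0.33 (adjusted p 2.76e-07 and 0.000281), the latter call being lost with library size alone. BET1L was the lower gene of this group. It had 38.3, 40.2 and 40.9 CPM in siControl and 22.9, 22.4 and 23.8 CPM in siSON (log2 fold change -0.79, SE 0.07, adjusted p 9.89e-07), and 14.8% of its exonic bases overlap AC069287.2 on the other strand. BET1 had a log2 fold change of -0.12 (adjusted p 0.204) and was not called, but it was called lower with upper quartile scaling and with library size alone (-0.21 and -0.32, adjusted p 0.0365 and 0.00643). STX17, a syntaxin of the ER and of autophagosomes, rose by 0.87 (SE 0.10, adjusted p 1.30e-05).

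At the trans-Golgi network and endosomes, 4 of 8 tested Q-SNAREs were higher, 2 were lower and 2 were not called. The share called, 75.0%, was close to the 77.4% of protein-coding genes tested, of which 40.3% were higher and 37.1% lower. STX10 and STX16 take part in traffic from endosomes back to the trans-Golgi network. STX10 went from 28.4, 27.7 and 27.8 CPM to 13.04, 12.06 and 11.59 CPM (log2 fold change -1.19, SE 0.08, edgeR adjusted p 1.19e-07). STX16 had 52.0, 48.3 and 45.5 CPM in siControl and 37.8, 35.1 and 31.9 CPM in siSON (log2 fold change -0.48, SE 0.08, adjusted p 0.000234), and 28.4% of its exonic bases are shared with the read-through gene STX16-NPEPL1. Their partner VTI1A rose, from 35.5, 31.7 and 30.5 CPM to 58.8, 54.9 and 55.8 CPM (log2 fold change 0.79, SE 0.07, adjusted p 1.69e-06). STX6, which acts in the same route and is related to STX10, was called at the edge of the threshold (log2 fold change 0.14, SE 0.06, adjusted p 0.048), and the call was lost in 13 of the 16 alternative fits, which include leaving out any 1 library other than siSON replicate 3 (adjusted p 0.0701 to 0.238).

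In the late endosomal set, STX7 and STX8 rose by 0.60 and 0.61 on the log2 scale (edgeR adjusted p 9.36e-06 and 0.000358). VTI1B, their partner, had the highest mean CPM, a value not corrected for length, of the genes that were not called: it had 75.6, 76.8 and 77.6 CPM in siControl and 83.4, 81.9 and 84.6 CPM in siSON. The groups of VTI1B did not overlap, but the difference was small (log2 fold change 0.12, SE 0.05, adjusted p 0.0545). STX12, an endosomal syntaxin, had 72.2 to 82.2 CPM in siControl and 75.6 to 82.9 CPM in siSON (log2 fold change 0.02, SE 0.07, adjusted p 0.843), and the sign of this value changed with the scaling.

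The R-SNARE group was evenly divided: of 10 tested genes, SEC22A and SEC22C included, 4 were higher, 4 were lower and 2 were not called. This was close to the background, in which 40.3% of protein-coding genes tested were higher and 37.1% lower. All 4 lower genes were VAMPs of the surface and endosomal routes, but VAMP7, of late endosomes, was higher and VAMP4 was not called. VAMP5, a VAMP best known from muscle, fell from 31.4, 29.8 and 30.9 CPM to 6.27, 7.62 and 8.56 CPM (log2 fold change -2.04, SE 0.11, edgeR adjusted p 2.77e-08), to 24.4% of the control level. VAMP2, the synaptobrevin of synaptic vesicles and of regulated exocytosis elsewhere, fell from 18.4, 16.7 and 14.96 CPM to 7.79, 7.47 and 6.45 CPM (log2 fold change -1.20, SE 0.11, adjusted p 1.78e-06), and 13.2% of its exonic bases overlap AC129492.3 on the same strand. VAMP1, close to VAMP2 in sequence, fell by 0.89 on the log2 scale (SE 0.14, adjusted p 0.000187). VAMP3, the cellubrevin of recycling endosomes, had 145.1, 141.9 and 147.6 CPM in siControl and 124.5, 120.5 and 126.8 CPM in siSON; the fall was small, 0.23 on the log2 scale (SE 0.05, adjusted p 0.00167), and the groups did not overlap. The fall of VAMP3 was 0.42 with library size alone and 0.50 under cyclic loess.

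Among the R-SNAREs and relatives with a longin domain, 4 of 5 were called, all higher with TMM. They are a part of the R-SNARE group above, which was evenly divided, and not a role group of their own. Over protein-coding genes tested, 77.4% were called and 40.3% were higher. SEC22B, of the ER and Golgi, had 137.1, 135.1 and 133.1 CPM in siControl and 219.7, 204.9 and 214.3 CPM in siSON (log2 fold change 0.66, SE 0.05, edgeR adjusted p 3.94e-07). YKT6, of the Golgi and other compartments, rose from 155.0, 155.0 and 163.4 CPM to 243.3, 230.7 and 247.5 CPM (log2 fold change 0.61, SE 0.05, adjusted p 9.46e-07). VAMP7, of late endosomes and lysosomes, rose by 0.62 (adjusted p 4.29e-06). SEC22A rose by 0.29 (adjusted p 0.034) with overlapping groups, and the call was lost in 8 of the 16 alternative fits, 4 of them those without siControl replicate 1 or 2 or siSON replicate 2 or 3 (adjusted p 0.0734 to 0.182). The longin relative SEC22C had a log2 fold change of -0.11 (adjusted p 0.159) and was called lower in 4 of the 16 alternative fits, with library size alone, upper quartile and cyclic loess scaling and a mean count of at least 50 (-0.30 to -0.16, adjusted p 0.0018 to 0.0327). SEC22B has a pseudogene copy in the table, SEC22B4P, with 63 to 86 counts per library, so reads could be split between the copies, though the SEC22B counts themselves were far larger. VAMP4, of the trans-Golgi network, had a log2 fold change of -0.13 (adjusted p 0.363) and was called lower with library size alone (-0.32, adjusted p 0.0359).

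Regulators of SNARE assembly were higher or not called. Among 7 tested SM and syntaxin-binding proteins, 6 rose (85.7%) and 0 fell. Of protein-coding genes tested, 40.3% were called higher and 37.1% lower. STXBP5, also called tomosyn, which holds surface syntaxins in an unproductive complex, had 57.7, 61.0 and 54.95 CPM in siControl and 102.0, 114.6 and 117.3 CPM in siSON (log2 fold change 0.94, SE 0.07, edgeR adjusted p 3.01e-07). SCFD2 went from 13.01, 12.52 and 13.12 CPM to 25.02, 23.31 and 25.44 CPM (log2 fold change 0.93, SE 0.08, adjusted p 7.38e-07), and SCFD1, the SM protein of STX5, rose by 0.39 (adjusted p 0.000283). STXBP4 and STXBP6 rose by 0.66 and 0.58 (adjusted p 8.26e-05 and 0.00047). STXBP3 (Munc18c), the SM protein of STX4, rose by 0.21 (SE 0.07, adjusted p 0.0239), in contrast to STX4 itself, and that call was lost in 8 of the 16 alternative fits, 4 of them those without siControl replicate 1 or 2 or siSON replicate 2 or 3 (adjusted p 0.0688 to 0.129). The count of 0 lower genes in this group held with TMM and not with library size alone, upper quartile or cyclic loess scaling, nor without siControl replicate 1.

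NSF, the ATPase that takes SNARE bundles apart, rose from 49.2, 49.6 and 49.6 CPM to 74.6, 70.4 and 74.6 CPM (log2 fold change 0.57, SE 0.06, edgeR adjusted p 3.33e-06). Its unprocessed pseudogene NSFP1 had 1 to 8 counts per library. NAPG, the gamma-SNAP adaptor, had 21.8, 21.1 and 19.4 CPM in siControl and 31.0, 33.1 and 33.2 CPM in siSON (log2 fold change 0.64, SE 0.07, adjusted p 1.26e-05). NAPA, the alpha-SNAP that joins NSF to most SNARE bundles, had 59.1 to 67.3 CPM in siControl and 52.6 to 70.4 CPM in siSON (log2 fold change -0.06, SE 0.10, adjusted p 0.598), and siSON replicate 1 was the highest library. NAPA was called lower without siSON replicate 1 (log2 fold change -0.18, adjusted p 0.0333) and with library size alone. NAPB, the beta-SNAP of the brain, had a log2 fold change of 0.23 (adjusted p 0.134) and was called higher without siSON replicate 3 (0.38, adjusted p 0.0124) and under cyclic loess (0.45, limma adjusted p 0.0112).

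Related genes were compared directly by the ratio of their CPM within each library, a measure that no factor applied to a whole library can move (cyclic loess, which depends on the level of a gene, can). In 14 pairs with both genes tested, the largest shift was that of STX3 over STX4. This ratio was 0.931, 0.708 and 0.714 in the siControl libraries and 15.9, 14.1 and 17.8 in the siSON libraries, a 20.4-fold difference, so STX4 was the more counted gene in every siControl library and STX3 in every siSON library. STX6 over STX10 moved from 1.84, 2.02 and 1.97 to 4.73, 4.96 and 4.98. VAMP2 over VAMP3 moved from 0.127, 0.118 and 0.101 to 0.0625, 0.0619 and 0.0509, so the more abundant paralog gained weight. For SNAP23 over SNAP25 the ratio was 10.8 to 13.4 in siControl and 12 to 14.5 in siSON, a difference of 0.06 on the log2 scale that was within the spread of the libraries (2-sided exact permutation test, p = 0.7). The other 13 pairs each gave p = 0.1 in the same exact permutation test (adjusted p 0.108 over the 14 pairs), the smallest that 3 libraries against 3 allow, so no pair could pass 0.05.

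**Figure D3:**
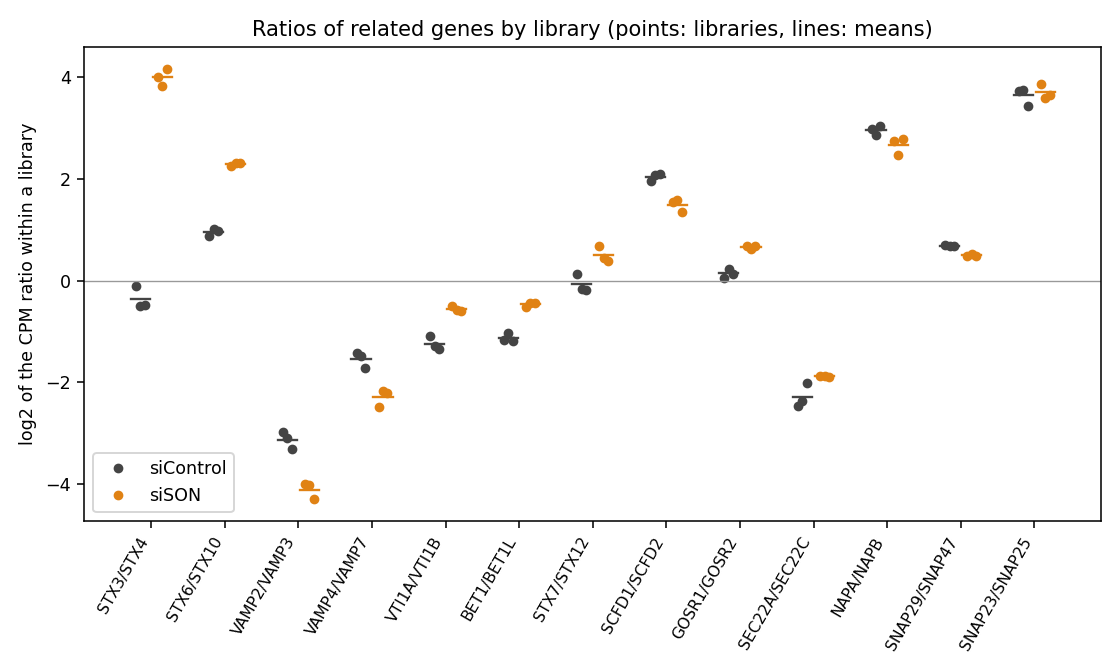
Log2 ratio of the CPM of related genes within a library (vertical axis) for 13 pairs, ordered by the size of the difference between groups; points are the 3 libraries of each group and lines their means. STX3/STX4 crosses from below 0 in siControl to about 4 in siSON, and SNAP23/SNAP25 overlaps between groups.

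Levels of different genes were ranked per length, as CPM per kilobase of merged exons. On this scale VAMP3 (52.5), YKT6 (42.6) and VAMP5 (37.5) had the highest means in siControl, and their ranges over libraries did not overlap. STX12 (18.8 to 21.4 over the siControl libraries) and STX2 (19.5 to 20.3) followed with overlapping ranges, and STX10, STX5, VAMP7 and SEC22B followed between 14.6 and 16.1, each overlapping its neighbour. In siSON, YKT6 (64.9) stood above VAMP3 (44.9), followed by STX5 (24.5), VAMP7 (23.7) and SEC22B (23.6), which overlapped. In this ranking over the 51 genes, STX4 moved from place 11 to 43, VAMP5 from 3 to 17 and STX2 from 5 to 21, and STX3 moved from 25 to 7. For the surface syntaxins the means per kilobase in siControl were 19.8 (STX2), 11.2 (STX4) and 5.52 (STX3), and in siSON they were 7.76, 2.08 and 20.5.

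The genes that fell differed in structure from those that rose. The 10 lower genes had a median transcript GC content of 55.4%, a median intron length of 573 bp and a median gene span of 10130 bp. In the 27 higher genes these medians were 44.1%, 3467 bp and 63710 bp. Protein-coding genes as a whole showed the same order with smaller gaps: GC content was 53.7% in lower and 47.4% in higher genes, median intron length was 1292 and 2192 bp, and span was 23180 and 45160 bp. STX4 had the shortest typical intron of the 48 genes (median 156.5 bp, 58.2% GC, 10087 bp span), and STX10 (241 bp), BET1L (284 bp) and VAMP2 (495 bp) were also at the short end. STX2 and VAMP5 were exceptions among the falls, with median introns of 4135 and 4158 bp. In the other direction, STX5 (320.5 bp, 55.9% GC) and STX1A (726 bp, 60.2% GC) had short introns and rose, and USE1 (294 bp, 58.2% GC) was not called.

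Across the 48 tested genes, the log2 fold change had a Pearson r of -0.45 (Spearman -0.34) with GC content, 0.44 (0.37) with log2 median intron length and 0.59 (0.57) with log2 gene span. Over protein-coding genes tested the same Pearson values were -0.26, 0.27 and 0.22. These are descriptions across genes that share libraries and whose GC content, intron length and span are themselves related. The median GC content of tested protein-coding genes was 48.9%. Of the 19 SNARE genes above it, 7 were lower (36.8%, beside 45.6% of protein-coding genes above it) and 7 were higher (36.8%, beside 34.8%). Of the 29 below it, 3 were lower (10.3%, beside 28.7%) and 20 were higher (69.0%, beside 45.9%).

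**Figure D4:**
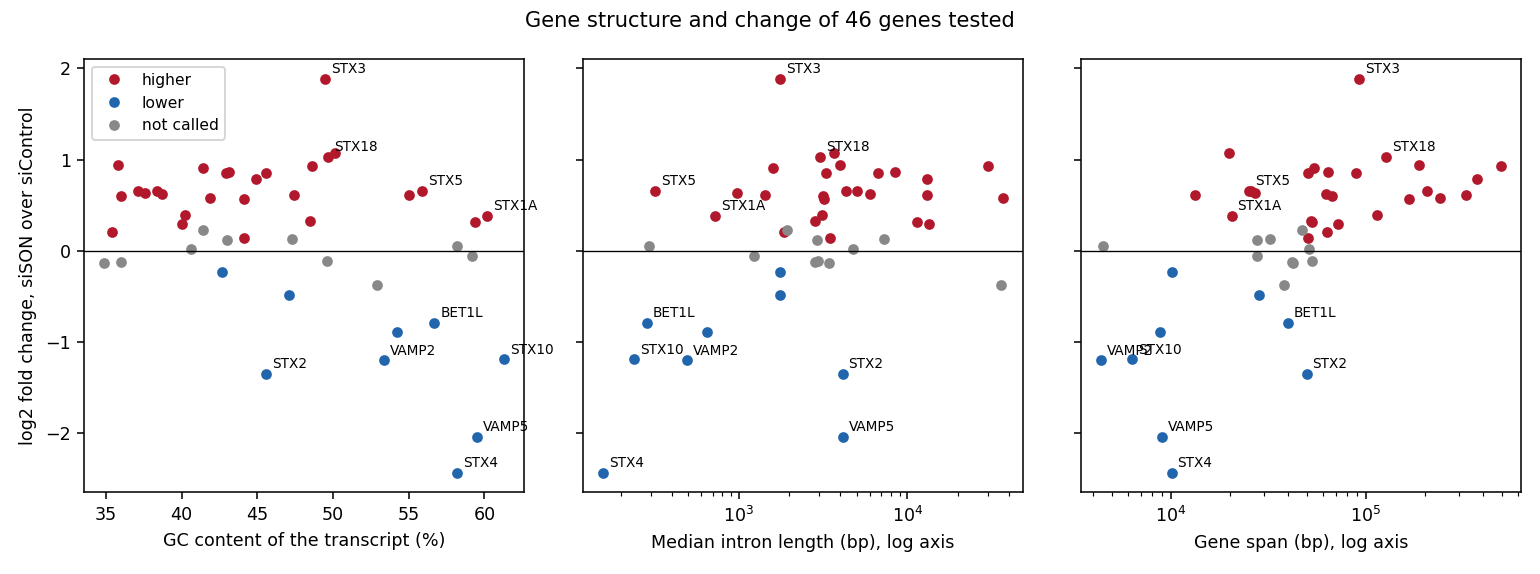
Log2 fold change (vertical axis) of 46 of the 48 tested genes against transcript GC content, median intron length and gene span (the latter 2 on log axes), coloured by call. Most lower genes sit at high GC content and short span; STX5 and STX1A share high GC content and short introns with them and were higher.

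Other genes of SNARE-driven fusion, namely tethers, SM proteins of the VPS33 and VPS45 families, calcium sensors and priming factors, were read from a list of 47 genes found in the table. Of the 44 tested, 38 (86.4%) were called, 18 higher and 20 lower, beside 71.7% of all genes and 77.4% of protein-coding genes called. Their median log2 fold change was -0.08. The list was chosen with earlier results of these data known, so this share is a description only. The 6 largest changes were mostly falls. PRRT2, UNC13D and DOC2A, factors of vesicle priming or calcium-triggered release, fell from low levels: PRRT2 from 2.43 ± 0.698 to 0.140 ± 0.084 CPM, UNC13D from 2.37 ± 0.467 to 0.140 ± 0.0756 CPM and DOC2A from 1.40 ± 0.191 to 0.147 ± 0.0728 CPM (mean ± SD of 3 libraries). Their log2 fold changes were -4.12, -4.04 and -3.27 (edgeR adjusted p 2.46e-06, 8.29e-07 and 7.64e-06) and under cyclic loess -3.39, -3.37 and -2.55; 30.1% of the exonic bases of PRRT2 overlap AC009133.6 on the same strand. UNC13D is known from immune cells; beside it, a list of 6 immune markers summed to 1.95 to 2.69 CPM in siControl and 0.543 to 0.649 CPM in siSON, with CD3E at 0 counts, and their part in the UNC13D result was not tested. SYTL4, a Rab27 effector in granule docking, fell by 2.55 on the log2 scale (adjusted p 8.20e-07). SYT1, the calcium sensor of synaptic release, was better expressed, with 90.02, 94.56 and 91.49 CPM in siControl and 29.5, 32.0 and 29.8 CPM in siSON (log2 fold change -1.60, SE 0.06, adjusted p 3.40e-09).

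VPS33A, the SM protein of the HOPS tether at lysosomes, was the largest rise of the list, from 13.7, 11.2 and 10.7 CPM to 49.3, 42.1 and 44.2 CPM (log2 fold change 1.93, SE 0.10, edgeR adjusted p 2.95e-08); 21.5% of its exonic bases overlap AC048338.1 on the same strand. Outside the naming rule, and chosen after their values were seen, are NBAS, RINT1 and ZW10, the tether that holds STX18, USE1 and BNIP1 at the ER. These genes rose by 1.23, 0.84 and 0.76 (adjusted p 3.27e-08, 2.26e-07 and 2.18e-06), beside the rises of STX18 and BNIP1. Rises were not general among the tethers of the list. Of the other HOPS subunits, VPS16, VPS11 and VPS41 were lower (log2 fold change -1.51, -0.83 and -0.33), and VPS18 and VPS39 were not called. In another tether, VPS51 and VPS52 were lower (-1.03 and -0.68) and VPS53 and VPS54 were higher (0.58 and 1.24).

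**Figure D5:**
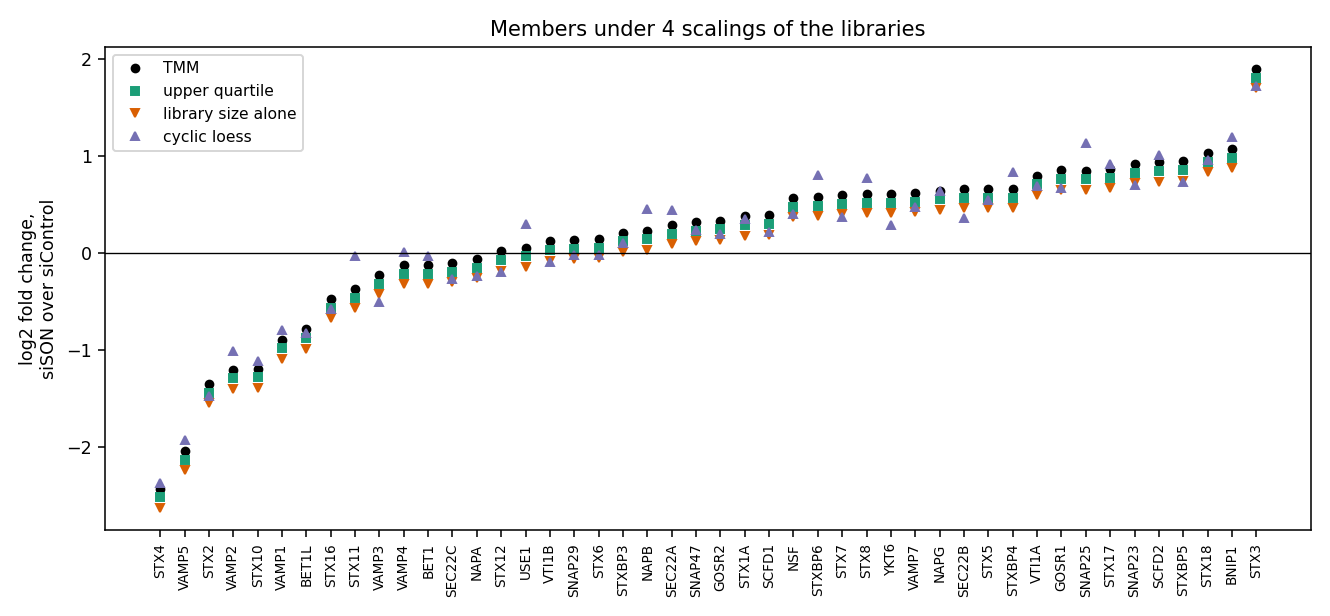
Log2 fold change (vertical axis) of each of 46 of the 48 tested genes, ordered by the TMM value, under 4 scalings of the libraries. The falls from STX4 to BET1L and the rises from NSF to STX3 keep their sign under every scaling shown, and genes near 0, such as STX12, USE1 and STX6, do not.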

How the data were processed

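A Monarch kit was used for RNA and the Nugen Universal Plus mRNA-seq kit for libraries, per the labels' protocols. The values deposited by the authors are raw counts (whole numbers, 1 column for each library) with no scaling; cutadapt 1.16, STAR 2.5.2a, featureCounts 1.6.2, DESeq2 1.28.1 and build hg38 are named in the submitters' processing notes. The strand setting and the handling of multi-mapping reads are not given in the sources used here, so some overlaps and copies are stated beside the genes. A gene without such a statement may overlap another gene as well. Examples on the other strand were SYTL4 (17.5% of exonic bases, with SRPX2) and NAPA (16.9%, with NAPA-AS1). Examples on the same strand were TUBB3 (35.8%, with AC092143.1) and SEC22A (10.4%, with PDIA5). All 58735 identifiers matched GENCODE release 29 (GRCh38), from which positions, exons, GC content and lengths were taken; structure used 1 principal transcript per gene.

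Columns were matched to libraries by title. Whether replicates were separate cultures is not stated, so p-values measure the spread between these libraries, which may be technical. The test was edgeR 4.0.16 under R 4.3.3: filterByExpr (minimum count 10), TMM scaling, a robust quasi-likelihood fit with group alone, and Benjamini-Hochberg adjustment over 16591 genes, called at 0.05. The fit was tested on simulated counts. Alternatives were DESeq2 1.42.0, limma 3.58.1 (voom; cyclic loess), other scalings and filters, a replicate block and omission of libraries. A count of 3 is the floor given, and this floor covers counting error alone, because PCR copies cannot be told from separate molecules here.

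The members (through the gene families in the symbol rule), role groups, related pairs and partner list were chosen with earlier results of these data known. Named with values per library were the 2 largest non-overlapping changes called in each role group, every call of at least 2-fold and the most abundant gene not called; further genes are given for context. Of the partners, the 6 largest calls were named. Some genes are included in the counts and medians but are not reported here by name, and the plots leave them out.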

Additional observations from a re-analysis of the deposited data

How the results depend on the processing

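The 37 SNARE genes called ranged from 34 to 40 over the 16 alternatives, and from 34 to 38 when 1 library was left out. The number lower, 10, was 16 with library size alone. Their median log2 fold change of 0.30 was 0.212 with upper quartile scaling, 0.104 with library size alone, 0.263 under cyclic loess, 0.244 with a mean count of at least 50, 0.247 without replicate 1 of both groups (an alternative chosen after seeing the data) and 0.273 to 0.363 when 1 library was left out. With the replicate number as a block, 39 SNARE genes were called, SNAP29 and VTI1B being added. Deviations of same-numbered libraries correlated at 0.046 to 0.194, above all differently numbered ones (highest 0.029), but not every pair passed 0.1 and the labels do not say what a number marks, so the numbers were not taken to pair the libraries.

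Signs changed only for 7 genes near 0 and for 1 ratio. STX12 was -0.0739 with upper quartile scaling, -0.182 with library size alone (edgeR adjusted p 0.035), -0.191 under cyclic loess (limma adjusted p 0.0179), -0.0415 with a mean count of at least 50, -0.0315 without replicate 1 of both groups and -0.0655 to 0.061 when 1 library was left out. USE1 was -0.0343 with upper quartile scaling, -0.143 with library size alone, -0.0026 with a mean count of at least 50, 0.299 under cyclic loess (limma adjusted p 0.0454) and -0.0381 to 0.1255 when 1 library was left out. With library size alone, SNAP29, STX6 and VTI1B were -0.0622, -0.055 and -0.0775, and under cyclic loess -0.0231, -0.0167 and -0.0905. VAMP4 was -0.321 with library size alone (edgeR adjusted p 0.0359), 0.01 under cyclic loess, 0.0213 without replicate 1 of both groups and -0.189 to 0.017 when 1 library was left out. NAPA ran from -0.183 to 0.0342 when 1 library was left out. The log2 ratio difference of SNAP23 over SNAP25 ran from -0.0399 to 0.115 when 1 library was left out. The cause of these differences was not tested.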
